A study of Homo sapiens with 8 samples.

Results

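The genes described here are 9 members of the NF-kB system: the subunits RELA, RELB, REL, NFKB1 and NFKB2, the inhibitors NFKBIA, NFKBIB and TNFAIP3, and the target gene ICAM1. The m6A peaks described are all those that the deposited lists assign to one of these gene names, 9 of 15730 peaks in control cells and 9 of 13219 peaks in DF2 siRNA cells, or 18 of 28949 in all. The cells were U2OS, a human osteosarcoma line, kept without any stated stimulus. Cytoplasmic RNA was fragmented and fragments with N6-methyladenosine (m6A) were pulled down with an antibody (anti-m6A, SYSY). The 8 libraries formed 4 groups of 2, namely input RNA of control cells, their m6A immunoprecipitate, and the same 2 kinds of library from cells with siRNA against DF2 (YTHDF2), a cytoplasmic reader that sends m6A-bearing mRNA to decay. The labels do not say what the control cells received, or whether DF2 siRNA #1 and #2 are different siRNAs. Each condition has 1 peak list for both immunoprecipitates, so differences between conditions have no replicate check and are given without p-values. The depth of the libraries is unknown. By the headers, control peaks carry p-values and DF2 siRNA peaks carry FDRs, so the lists may be cut at unlike limits.

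NF-kB factors are pairs of Rel-homology proteins that wait in the cytoplasm, held there by inhibitors of the IkB family. Receptors such as those for TNF and interleukin-1 activate a kinase complex that has the inhibitor destroyed, and the freed factors bind kappaB sites in target genes. Several targets, among them NFKBIA and TNFAIP3, shut the response down again, and the mRNAs of many targets are short-lived.

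Of the 9 genes, 4 carried an m6A peak in both lists (RELA, REL, TNFAIP3 and ICAM1). RELB carried peaks in the DF2 siRNA list only, and NFKB1, NFKB2, NFKBIA and NFKBIB had none in either list. Among 19974 RefSeq protein-coding genes matched by symbol, 31.8% had a peak in both lists, 2.35% in DF2 siRNA only, 5.64% in control only and 60.2% in neither. The member shares were 44.4% in both (95% exact binomial interval 13.7 to 78.8%), 11.1% in DF2 siRNA only (0.281 to 48.2%), 0 of 9 in control only (up to 33.6%) and 44.4% in neither. These intervals hold the shares over all genes and cover counting error only. By list, 4 of 9 genes had a control peak, beside 37.4% of all protein-coding genes, and 5 of 9 had a DF2 siRNA peak, beside 34.1%. A peak needs methylated RNA and enough RNA to be seen, so a gene without a peak may be unmethylated, little expressed or expressed in few cells, and these cannot be told apart here.

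**Figure D1:**
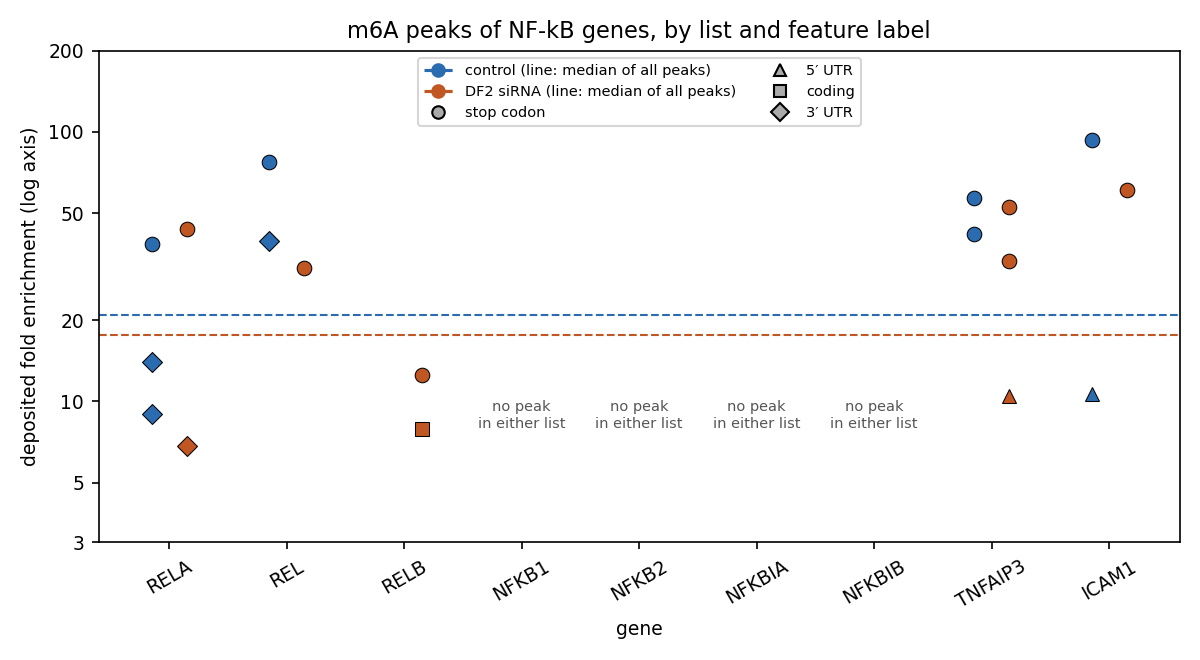
Deposited fold enrichment (vertical log axis) of every m6A peak of the 9 NF-kB genes (horizontal axis), 1 point per peak, blue for the control list and orange for the DF2 siRNA list, with the marker shape giving the feature label and the dashed lines the median of all peaks of each list (20.8 and 17.7). The stop codon peaks of RELA, REL, TNFAIP3 and ICAM1 lie above both lines, the RELB peaks and both 5′ UTR peaks lie below them, and 4 genes have no point.

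Short peaks of ICAM1 and TNFAIP3 lay at promoters, and sequences from them are shown because these are the only members whose peaks reached a RefSeq promoter window (250 bases before to 50 after a transcript start, GRCh38.p14). Windows were given for 8 of the 9 genes, RELB being the exception. The 10-base kappaB consensus, searched on both strands, was found in 3956 of 35116 windows of all genes (11.3%). It was found in 7 of the 13 member windows, those of REL, NFKB1, NFKB2, NFKBIA, NFKBIB and TNFAIP3. The ICAM1 window held no match. With the first base of the consensus left free, a search added after the windows were seen, 10 of the 13 member windows held a match, beside 32.0% of all windows. These included the ICAM1 window, a RELA window and a second NFKB1 window, in which the consensus itself was not found. The ICAM1 line shows such a looser match. In the lines below, capitals mark the match and the rest is flanking sequence, written 5′ to 3′ on the strand of the gene.
ICAM1: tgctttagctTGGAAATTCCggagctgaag
TNFAIP3: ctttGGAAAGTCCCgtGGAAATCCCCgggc
NFKBIA: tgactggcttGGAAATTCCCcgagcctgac
NFKB1: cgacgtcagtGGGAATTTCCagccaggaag
The ICAM1 line is chr19:10270923-10270952 and the TNFAIP3 line chr6:137867188-137867217, both on the plus strand. The NFKBIA line is chr14:35404811-35404840 on the minus strand and the NFKB1 line chr4:102501300-102501329 on the plus strand. Both latter genes are shown for contrast, as members without any peak.

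The looser ICAM1 match starts at position -187 relative to the RefSeq start of the gene and lies inside a control-only peak labelled 5′ UTR (chr19:10270835-10271034). ICAM1 encodes an adhesion molecule to which leukocytes bind. This peak was 200 nt long, at 10.7-fold enrichment, with a −log10 p-value of 3.21 and a score of 18. It ended 86 bases before the RefSeq start of ICAM1, so it lay outside the RefSeq gene despite its 5′ UTR label. In the 165 bases shared by the peak and the window, none of 4 m6A motifs was found on the strand of the gene (neither GGACT nor the variants with another start, that is AAACT, variant AGACT and variant GAACT). At the same positions, 43.7% of all windows hold at least 1 of them, and 19.7% hold a kappaB match with a free first base.

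The TNFAIP3 consensus matches lie inside a peak found in DF2 siRNA cells only, also labelled 5′ UTR (chr6:137867188-137867387). TNFAIP3, also called A20, is a ubiquitin-editing enzyme that damps NF-kB signalling. This peak was 200 nt long, with a fold enrichment of 10.5, a −log10 FDR of 1.90 and a score of 33. It starts 839 nt inside the RefSeq gene, which begins at chr6:137866349, upstream of the transcript start of this window (chr6:137867259). Its first base is also the first base of the TNFAIP3 line above, and it overlaps the window by 121 bases. Those bases hold 2 kappaB matches, both on the strand opposite to the gene, and 4.25% of all windows hold a match at the same positions. They also hold 1 of the 4 m6A motifs, AGACT, in a stretch that crosses this transcript start (chr6:137867240-137867269).
TNFAIP3 start region: acggggcaaagcAGACTgcgcagtctgcag
At these positions 32.0% of all windows hold at least 1 of the 4 motifs. A match describes the letters only, and no methylated base was mapped.

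Both 5′ UTR peaks were weak within their lists, and neither was left with p or FDR 100 times smaller or in the upper 50% by fold enrichment. The ICAM1 peak stood at percentile 21.7 of the control list by fold enrichment and 16.1 by score, and the TNFAIP3 peak at percentile 24.0 and 32.4 of the DF2 siRNA list. Of all peaks labelled 5′ UTR alone, 55.4% of those in control and 63.0% of those in DF2 siRNA were overlapped by a peak of the other list. In control cells the region of the TNFAIP3 peak was spanned by a peak of an antisense gene, RP11-356I2.4, on the minus strand (chr6:137866877-137868233, fold enrichment 6.56, score 8), without overlap of the exonic blocks. Whether reads were assigned by strand is unknown from the labels and headers.

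The peaks shared by both conditions sat mainly at stop codons. Of the 9 control peaks 6 were overlapped by a DF2 siRNA peak (at least 1 shared exonic base, same strand), beside 71.9% of all control peaks. In the DF2 siRNA list 6 of the 9 were overlapped by a control peak, beside 87.5%. Both member shares are 66.7% (29.9 to 92.5%). Identical blocks in both lists were found for 5 of 9 peaks. Over whole lists this share was 29.5% in control and 35.1% in DF2 siRNA. A stop codon was touched by 5 of the 9 peaks in control and by 6 of the 9 in DF2 siRNA, beside 42.7% and 43.7% of the whole lists. All 5 control stop codon peaks were overlapped, as were 83.6% of all control stop codon peaks, and 5 of 6 in DF2 siRNA, as were 93.3%. Peaks of 1 gene share their RNA, so these counts are not over independent peaks. At gene level, each of the 4 genes found in control recurred after DF2 siRNA (79.7% over all genes), and 4 of the 5 found after DF2 siRNA recurred in control (92.9%).

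**Figure D2:**
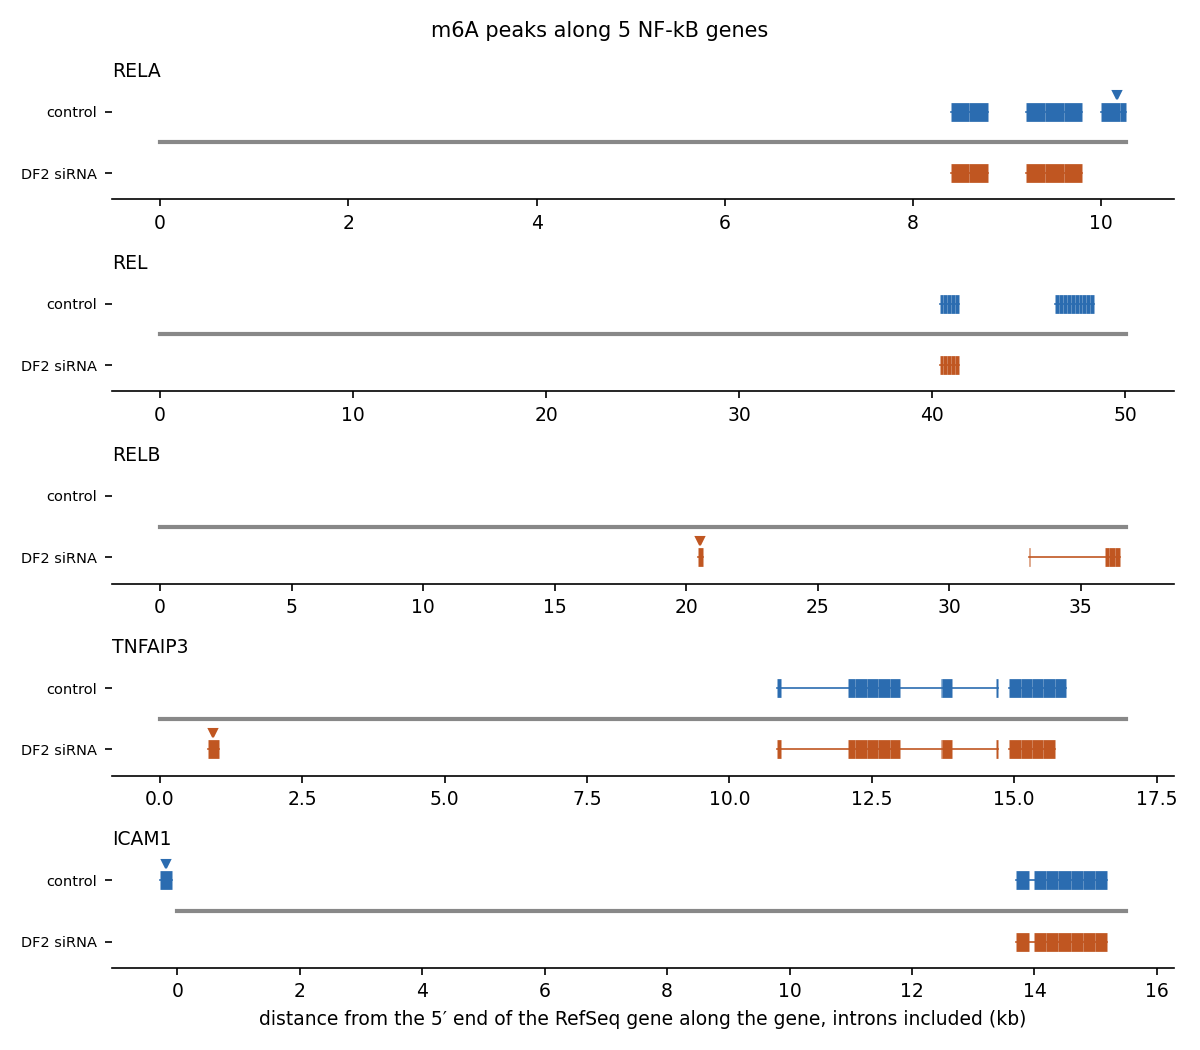
Position of every peak along the 5 genes that have one, as distance in kb from the 5′ end of the RefSeq gene in the direction of transcription, with introns; boxes are exonic blocks, thin lines join blocks of 1 peak, triangles point to peaks under 300 nt, and the grey line is the gene. Control (blue) and DF2 siRNA (orange) peaks coincide on the 3′ side of RELA, REL, TNFAIP3 and ICAM1. The peaks nearest the 3′ ends of RELA and REL are in control only, and RELB has peaks in DF2 siRNA only.

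RELA, which encodes p65, the activating subunit of the most common NF-kB dimer, carried 3 control peaks and 2 DF2 siRNA peaks, all close to the 3′ end of the gene. The strongest covered the stop codon (chr11:65654060-65654659, minus strand, 600 nt, labelled coding, stop codon and 3′ UTR) and had the same blocks in both lists. Its fold enrichment was 38.5 in the control list and 43.8 in the DF2 siRNA list, with scores of 937 and 627. It stood at percentile 71.6 of the control list and 82.2 of the DF2 siRNA list by fold enrichment.

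A weaker peak of RELA (chr11:65655060-65655459, 400 nt) was likewise identical in both lists. Its fold enrichments were 8.99 in control and 6.81 in DF2 siRNA, and its scores 20 and 9. The authors labelled it 3′ UTR, although on the minus strand it lies 400 nt before the stop codon peak. In control cells only, another peak of 264 nt lay at the very end of the gene (chr11:65653596-65653859), past the RefSeq 3′ end by 5 bases. It had a fold enrichment of 14.0, a −log10 p-value of 2.51 and a score of 163, above the median control score of 143. Only 200 nt separated it from the stop codon peak, so the number of RELA peaks depends on how neighbouring bins were joined.

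REL encodes c-Rel, an activating subunit best known from lymphocytes. Its stop codon peak (chr2:60921956-60922955, plus strand, 1000 nt) was identical in both lists. The fold enrichment was 77.2 in control cells and 31.4 in DF2 siRNA cells, and the scores were 326 and 99. It held percentile 90.8 of the control list and 72.0 of the DF2 siRNA list by fold enrichment.

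A second REL peak was listed in control cells only and had the highest fold enrichment and −log10 value of the member peaks without a counterpart, though not the highest score. It covered 2000 nt of the distal 3′ region (chr2:60927956-60929955, labelled non-coding RNA and 3′ UTR), 5000 nt beyond the stop codon peak and 1657 nt before the RefSeq 3′ end. Its fold enrichment was 39.4, its −log10 p-value 23.6 and its score 69. Of the 4426 control peaks without a DF2 siRNA counterpart, 28 (0.633%) had a −log10 p-value at least as high, 62 (1.4%) a fold enrichment at least as high, and 15 (0.339%) were at least as wide. Of the 1494 control peaks that reached this −log10 p-value, 98.1% were overlapped in DF2 siRNA cells. Its score was below the control median, at percentile 37.0. For comparison, 61.6% of all control peaks labelled 3′ UTR without coding sequence or stop codon were overlapped.

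The same stretch was also listed under another gene. In control cells RP11-373L24.1 carried a peak on the same strand at chr2:60927909-60929908, with the same labels, a width of 2000 nt, an enrichment of 49.1 and a score of 93. Reads of REL and of this overlapping gene cannot be told apart, so the distal peak is uncertain as a peak of REL. DF2 siRNA cells had no peak of either gene at this place.

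RELB, a subunit of the slower, non-canonical branch of the pathway, had no peak in control cells and 2 in DF2 siRNA cells. One covered 200 nt of coding sequence (chr19:45021910-45022109, plus strand), with a fold enrichment of 7.89, a −log10 FDR of 2.05 and a score of 12. The other covered 600 nt in 4 blocks around the stop codon (chr19:45034488-45037963), with a fold enrichment of 12.6, a −log10 FDR of 2.43 and a score of 43. Both were in the lower part of their list, at percentiles 12.6 and 33.5 by fold enrichment. No RELB peak was left when only peaks with an FDR 100 times smaller than the limit were kept, or only the upper 50% of the list by fold enrichment.

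NFKB1 and NFKB2 encode the precursors p105 and p100, from which the DNA-binding subunits p50 and p52 are made. Neither gene had a peak in either list, and no peak of another gene fell within their RefSeq spans (chr4:102501359-102617302 and chr10:102394110-102402529). The same held for NFKBIA and NFKBIB, which encode the inhibitors IkB-alpha and IkB-beta and span chr14:35401513-35404749 and chr19:38899666-38908889.

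TNFAIP3 was the only inhibitor of the group with m6A peaks, and its peaks at the 3′ side were found in both conditions. The larger one (chr6:137877186-137881061, 1200 nt in 9 blocks, coding, stop codon and 3′ UTR) was identical in both lists. The control list gave it a fold enrichment of 57.0 (score 987), and the DF2 siRNA list 52.6 (score 464). The next peak began 200 nt further on, at chr6:137881262, and was 1000 nt wide in control and 800 nt in DF2 siRNA. It was listed at fold enrichments of 41.7 and 33.3 and scores of 504 and 284. Both peaks of this gene carry a stop codon label, and the exonic sequence under all TNFAIP3 peaks came to 2200 nt in each list.

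ICAM1 had the highest fold enrichment and score of the 9 genes in both lists. Its stop codon peak (chr19:10284824-10286309, plus strand, 1400 nt in 8 blocks) was identical in both. The control list gave it a fold enrichment of 93.2, a −log10 p-value of 23.1 and a score of 6266, and the DF2 siRNA list a fold enrichment of 60.9, a −log10 FDR of 14.5 and a score of 1028. By score it stood at percentile 99.7 of the control list and 96.4 of the DF2 siRNA list. The peak ended 306 nt before the RefSeq 3′ end.

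Fold enrichments and scores are the authors' values, and they rank peaks within a list. For peaks with identical blocks in both lists, ranks were taken within the 4643 such peaks, a set of the same size in both. By fold enrichment the REL stop codon peak held percentile 87.4 in control and 62.2 in DF2 siRNA. A move of at least this size, 25.2 points lower, was seen in 18.8% of the 4643 peaks in either direction. By score its percentiles were 51.9 and 45.4, and 46.7% of the peaks moved at least as far. The RELA stop codon peak went the other way, from percentile 62.3 to 75.1 by fold enrichment, and 46.5% of the peaks moved as far. By score the RELA peak went from percentile 79.2 to 88.0, further than REL, and 35.1% of the peaks moved as far. By fold enrichment ICAM1 held percentiles 92.4 and 86.2 and the larger TNFAIP3 peak 77.2 and 81.6. These moves were matched or passed by 69.7% and 76.4% of the peaks. None of these ranks has a replicate, so no move was tested.

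**Figure D3:**
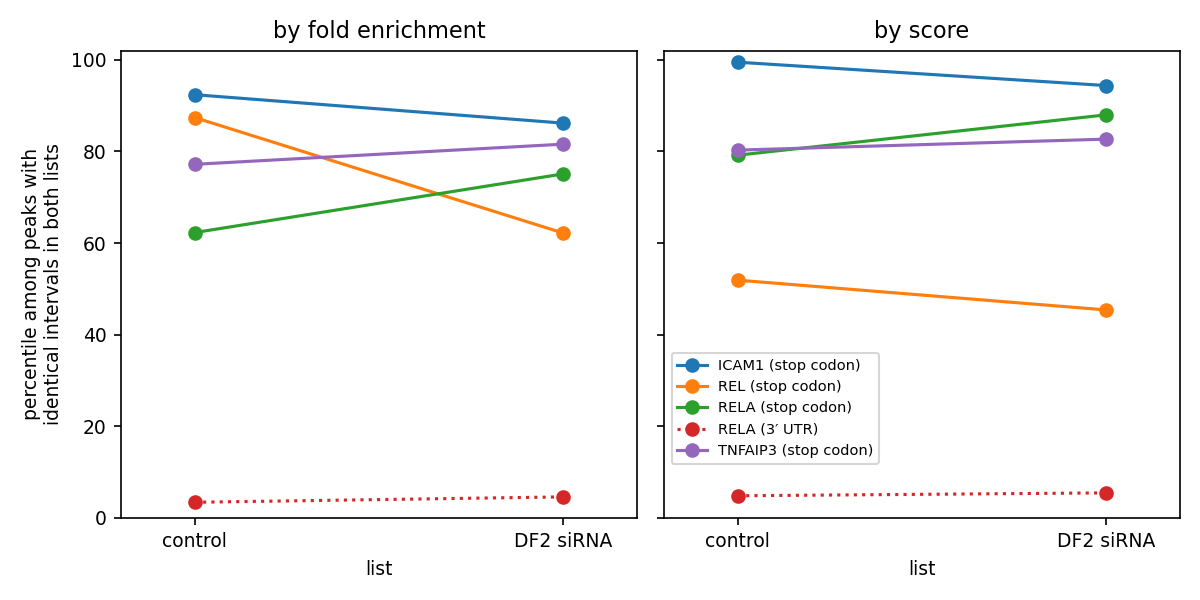
Percentile (vertical axis) of the 5 member peaks with identical blocks in both lists, ranked among all 4643 such peaks by fold enrichment (left) and by score (right), with a line joining the control and DF2 siRNA value of 1 peak. REL goes from percentile 87.4 to 62.2 by fold enrichment and from 51.9 to 45.4 by score, and the other 4 peaks shift by fewer points on the left panel. On the right panel the RELA stop codon peak shifts most, from percentile 79.2 to 88.0.

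The upstream and downstream genes of the pathway were followed in 5 lists of 81 further genes. A peak in both conditions was found for 47 of them (58.0%), beside 31.8% of all protein-coding genes. Of the rest, 3 had a peak in control only, 3 in DF2 siRNA only and 28 in neither. The shares over all protein-coding genes were 5.64%, 2.35% and 60.2%. Those genes were not limited to expressed ones, and the 5 lists were chosen with earlier results of these data known. Where 2 fold enrichments are given below, the first is that of the best peak in control and the second that of the best peak in DF2 siRNA, which may lie at different sites.

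Of 16 receptors and ligands, 8 had a peak in both lists, and all 8 were receptors or receptor subunits. TLR4, which senses bacterial lipopolysaccharide, was listed at 154 and 40.5. Its best control peak was labelled coding, stop codon and 3′ UTR, and its best DF2 siRNA peak 3′ UTR alone. TNFRSF11A, the receptor RANK, was listed at 109 and 144, and the lymphotoxin receptor LTBR at 88.7 and 87.5. The interleukin-1 receptor IL1R1 had 2 peaks in control, the better at 17.5 with a score of 46, and none in DF2 siRNA. The ligands TNF, IL1A, IL1B, LTA and TNFSF11 had no peak in either list, and neither did the receptors TNFRSF1B and CD40.

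Adaptors and ubiquitin ligases carried peaks most often, 16 of 20 in both lists. TRAF5 was listed at 113 and 74.9, the TAK1 partner TAB1 at 88.9 and 53.6, and TRAF3, which holds back the non-canonical branch, at 81.4 and 85.3. TRAF1 (25.9, score 38) and RNF31, a subunit of the linear ubiquitin ligase (8.02, score 10), were found in control only. The kinase IRAK1 was found in DF2 siRNA only, at 11.3 with a score of 124. MYD88 had no peak.

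Among 8 kinases, 5 had a peak in both lists. IKBKB, the main kinase of IkB proteins, was listed at 62.3 and 58.1, MAP3K7 (TAK1) at 53.8 and 18.9, and MAP3K14 (NIK), which drives the non-canonical branch, at 37.5 and 29.1. IKBKE was found in DF2 siRNA only (12.5, score 26), and CHUK and TBK1 had no peak.

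Of 15 other inhibitors and regulators, 10 had a peak in both lists. The deubiquitinase OTUD7B was listed at 83.5 and 89.5, RNF11, a partner of TNFAIP3, at 60.1 and 44.7, and NLRC5 at 58.7 and 62.2. BCL3, a nuclear IkB protein that binds p50 and p52, was found in DF2 siRNA only, at 8.85 with a −log10 FDR of 1.34, close to the minimum of 1.30.

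Of 22 other target genes, 8 had a peak in both lists, 14 had none, and no gene was found in 1 list only. The share in both lists was 36.4%, near the 31.8% of all protein-coding genes. Of all protein-coding genes, 60.2% had a peak in neither list. GADD45B, a stress-induced inhibitor of cell death signalling, was listed at 149 and 89.8, IER3 at 78.2 and 77.1, and the survival gene BCL2L1 at 65.9 and 70.5. LIF, SOD2, CFLAR, CD83 and IRF1 made up the remainder of those with peaks. The genes without a peak were the chemokines CXCL1, CXCL2, CXCL3, CXCL8, CXCL10, CCL2, CCL5 and CCL20, the cytokines IL6 and CSF2, the endothelial adhesion genes VCAM1 and SELE, and PTGS2 and MMP9.

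**Figure D4:**
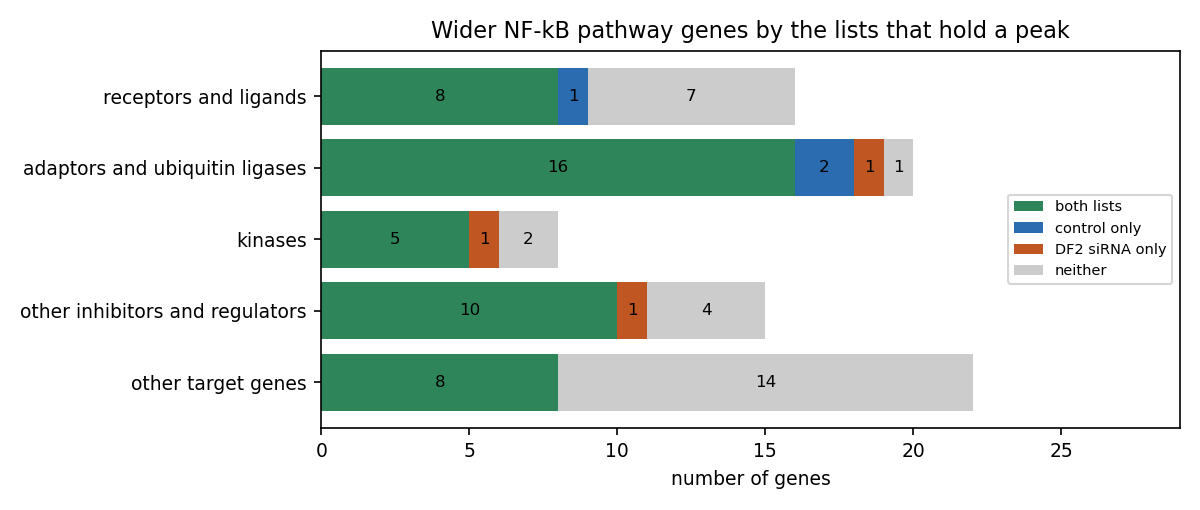
Number of genes (horizontal axis) in each of the 5 wider NF-kB lists that had an m6A peak in both lists (green), in control only (blue), in DF2 siRNA only (orange) or in neither (grey), with the counts printed in the bars. Adaptors and ubiquitin ligases have 16 of 20 genes in both lists, and other target genes 8 of 22, beside 31.8% of all protein-coding genes.

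By the percentiles of their best peak in fold enrichment and score in both lists, the member nearest to a gene of the wider lists was TNFAIP3, which lay 4.79 percentile points from OTULIN (Euclidean distance over 4 values, 47 candidates). ICAM1 lay 5.12 points from IER3, RELA 10.5 points from TNFRSF1A and REL 12.8 points from TRAF6. IER3, for example, held percentiles 91.0 and 99.5 in control by fold enrichment and score, where ICAM1 held 94.2 and 99.7.

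Of 10 osteoblast and osteosarcoma markers, 3 had peaks in each list (RUNX2, COL1A1 and TNC), and SP7, COL1A2, SPARC, ALPL, BGLAP, SPP1 and IBSP had none. Over all protein-coding genes, 37.4% had a control peak and 34.1% a DF2 siRNA peak, so this count does not tell the cell type. Among leukocyte markers CD14 had a peak in both lists, CD68 in 1 list, and PTPRC, CD3E and LYZ in none. Of 4 endothelial markers CDH5 had a peak in both lists, PECAM1 in control only, and VWF and KDR in none. Peaks do not measure expression, and the part of other cell types in the results was not tested.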

How the data were processed

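The authors deposited 1 m6A peak list per condition, and the labels tie each to both immunoprecipitates. The submitters' processing notes name HISAT2 and hg38. The peak caller, its settings and the annotation are not given in the labels or headers. Each peak has a fold enrichment (a ratio with unstated denominator), a −log10 value (p-value for control, FDR for DF2 siRNA) and a score of unstated meaning, per the file headers. Starts are printed counted from 1.

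Exonic blocks were rebuilt from the block starts and sizes. Sizes of minus-strand peaks were written in the reverse order of their starts in 4189 control and 3074 DF2 siRNA peaks, and were turned round. Overlap required 1 shared exonic base on the same strand. The count was checked on copies of the control list in which part of the peaks had been moved away. That check does not cover partial overlap or strand. All 9 members matched RefSeq (GRCh38.p14), the source of gene spans and promoter sequences. Not analysed here were single libraries and motifs under peaks away from promoters.

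The members and gene lists were chosen with earlier results of these data known. All members are named. A cell type marker is not reported here. From each wider list the text names genes found in 1 list only (up to 4 per direction) and the 3 with the highest control fold enrichment among those in both. Genes named beyond this, to account for lists or as absent, were chosen after their values were seen. Alternatives were stricter limits, equal list lengths, other overlap rules, peak width, peaks per gene and RefSeq names. Joining of near peaks and the block order as written were added after the data were seen. Tools were Python 3.11.15, pandas 2.3.3, numpy 2.4.6, scipy 1.17.1 and matplotlib 3.10.9.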

Additional observations from a re-analysis of the deposited data

How the results depend on the processing

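Of 46 values recomputed under the alternatives, 41 stayed within 1.5 times the reported count. This limit is wide for small counts. With the upper 50% by fold enrichment, members with a DF2 siRNA peak fell from 5 to 4 and wider genes in both lists from 47 to 33, both within it. With at least 2 peaks per gene, the members numbered 2 in both lists and 3 under DF2 siRNA, and the wider genes in both numbered 17 of 81. Among peaks of at most 400 nt, 0 member peaks touched a stop codon in control and 0 in DF2 siRNA, out of 3 each. With p or FDR 100 times smaller, or the upper 50% by fold enrichment, RELB lost both its peaks, the 5′ UTR peaks of ICAM1 and TNFAIP3 were lost, RELA kept its stop codon peak alone, and all 5 remaining DF2 siRNA peaks were overlapped. The shares over all genes or peaks were not computed under these settings, so these counts have no background beside them. No paired analysis was possible because each condition has 1 peak list and the numbered libraries have no values of their own here. For the same reason no library could be left out. Depth is unknown. By the headers, the smallest −log10 value was 1.30 in both lists, for a p-value in control and an FDR in DF2 siRNA. These are unlike limits, and their effect on the counts of peaks found in 1 list was not tested. Weak peaks found in 1 list, such as those of RELB, therefore limit what the counts can show.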

Other observations

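Peaks are numbered from 0 within a gene in the deposited names. In the control list the numbers of RELA began at 2 and those of TNFAIP3 at 1, and in the DF2 siRNA list the number of REL was 1. A first number above 0 was seen for 17.5% of 9971 control genes and 17.8% of 8556 DF2 siRNA genes. What the skipped numbers stood for is unknown.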
